A study of Mus musculus with 18 samples.

Results

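Cell cycle and mitosis genes are described here across mammary tumours of ERBB2 (neu) transgenic mice. The members were 38 genes chosen by symbol, from proliferation markers and mitotic kinases to the replication helicase, and 37 of them had a probe set that carried that symbol alone. Ccnb1, which encodes cyclin B1, had none and was not analysed here. Expression was measured on 18 single-colour Affymetrix arrays of total tumour RNA, and the values are RMA log2 expression, in which a difference of 1 is a doubling. The 37 members were read out of 19938 genes tested.

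All mice were ERBB2+, with the neu transgene of the strain FVB/N-Tg(MMTVneu)202Mul/J, in which the mouse mammary tumour virus promoter drives the transgene in mammary epithelium. The KO mice lacked Snai2, a zinc finger transcription factor, through the allele of the strain B6;129S1-Snai2tm2Grid/J, so host and tumour cells both lack the gene. Parous KO mice gave 3 arrays with metastasis and 3 without. Nulliparous KO mice gave 1 array with metastasis and 3 without. WT mice, all of which had metastasis here, gave 4 arrays from parous and 4 from nulliparous animals. The labels give no ages and call the arrays biological replicates. Replicates 2 and 3 of the metastatic parous KO group held almost the same values. Over 10252 bright genes the SD of their log2 difference was 0.102, whereas the second closest of the 153 pairs had 0.285. The mean of replicates 2 and 3 was therefore used as 1 sample, and 17 samples entered the tests. The second closest pair was replicate 1 of the KO parous and replicate 2 of the KO nulliparous tumours without metastasis. These 2 were kept apart.

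The labels of the arrays were checked on a few genes. Snai2 had log2 values of 6.28 to 6.79 in KO samples and of 6.68 to 7.09 in WT samples, so the ranges overlapped, and the sources used here do not say whether its probe set lies in the deleted part. Erbb2 lay between 12.45 and 12.92 in all samples. The luminal markers Krt8, Krt18 and Epcam were at least 12.62 in every sample, whereas array medians lay between 7.60 and 7.67. The basal keratins Krt5 and Krt14 stayed at or below 7.99 in every sample.

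A cell enters the cycle when cyclin E and E2F factors switch on the genes for DNA replication, copies its DNA with the Mcm helicase and the sliding clamp Pcna, and then divides under Cdk1 with cyclins A and B. Polo and Aurora kinases, the spindle checkpoint, kinesins and condensin carry the chromosomes through mitosis, and the factor Foxm1 drives many of these late genes. Because most of these transcripts are made only in dividing cells, their level in tumour tissue is widely used as a measure of proliferation.

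A few promoter elements are known from genes of this kind, and 5 member promoters are printed as examples. The windows run from 250 bases before to 50 bases after the start of the gene, from RefSeq (GRCm38.p6), 5′ to 3′ on the strand of the gene. Capitals mark matches on either strand to TTTGAA, the core of the cell cycle homology region of late genes, to the CCAAT box, and to 4 forms of the E2F site (TTTGGCGC, TTTCCCGC, TTTGCCGC and TTTCGCGC), which can overlap each other on the opposite strands.
Ccnb2, cyclin B2 (chr9:70421505-70421804, minus strand): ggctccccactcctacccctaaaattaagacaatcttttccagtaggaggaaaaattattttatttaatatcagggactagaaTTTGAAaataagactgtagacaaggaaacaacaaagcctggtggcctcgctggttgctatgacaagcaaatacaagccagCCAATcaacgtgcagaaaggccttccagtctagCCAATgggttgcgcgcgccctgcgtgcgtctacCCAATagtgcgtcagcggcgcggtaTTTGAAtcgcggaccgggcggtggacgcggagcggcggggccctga
Cdk1, the mitotic kinase (chr10:69352863-69353162, minus strand): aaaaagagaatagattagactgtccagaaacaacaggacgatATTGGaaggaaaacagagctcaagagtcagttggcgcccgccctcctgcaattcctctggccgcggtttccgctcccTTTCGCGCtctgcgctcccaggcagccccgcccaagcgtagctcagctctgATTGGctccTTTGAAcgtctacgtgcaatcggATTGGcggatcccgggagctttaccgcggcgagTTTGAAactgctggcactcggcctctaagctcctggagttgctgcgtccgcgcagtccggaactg
Plk1, polo kinase (chr7:122159185-122159484, plus strand): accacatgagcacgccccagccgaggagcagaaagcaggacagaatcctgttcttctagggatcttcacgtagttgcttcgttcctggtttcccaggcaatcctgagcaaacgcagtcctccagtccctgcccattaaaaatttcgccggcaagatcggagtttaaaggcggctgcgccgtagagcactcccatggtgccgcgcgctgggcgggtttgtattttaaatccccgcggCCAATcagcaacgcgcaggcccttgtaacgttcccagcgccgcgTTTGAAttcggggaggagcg
Mcm6, a helicase subunit (chr1:128359656-128359955, minus strand): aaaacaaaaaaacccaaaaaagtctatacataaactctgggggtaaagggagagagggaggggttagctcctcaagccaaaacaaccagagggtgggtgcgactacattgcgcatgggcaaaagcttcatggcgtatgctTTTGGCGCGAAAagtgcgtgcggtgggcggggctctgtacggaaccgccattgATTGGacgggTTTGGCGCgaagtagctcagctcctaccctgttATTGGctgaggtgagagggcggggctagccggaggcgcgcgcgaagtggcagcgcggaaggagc
Ccne1, cyclin E1 (chr7:38107441-38107740, minus strand): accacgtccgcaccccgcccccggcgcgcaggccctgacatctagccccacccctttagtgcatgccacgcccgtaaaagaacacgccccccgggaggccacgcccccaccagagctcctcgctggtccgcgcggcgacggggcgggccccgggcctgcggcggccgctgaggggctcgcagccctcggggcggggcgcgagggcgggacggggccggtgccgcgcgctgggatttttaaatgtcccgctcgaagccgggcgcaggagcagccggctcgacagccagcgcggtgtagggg

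Windows were found for 31 of the 38 members, with 33 windows in all. TTTGAA stood in 51.5% of the members' windows and in 17.9% of all 32851 windows of the table. It was in 16 of 22 windows of the mitotic roles, such as Ccnb2 and Plk1 above, and in 1 of 11 windows of the replication and cyclin E roles. The related form TTCGAA stood in 12.1% of member windows and 1.56% of all windows. CCAAT was in 78.8% of member windows, against 37.4% of all windows. An E2F form was in 18.2% of member windows, against 2.26% of all windows, and here the replication and cyclin E roles had 4 of 11 and the mitotic roles 2 of 22. The Ccne1 window held none of these letters. An E2f1 window, which is not printed, also held none, but its bases read as protein-coding sequence. It is among the windows counted and does not describe the E2f1 promoter. These matches are descriptions of the sequence.

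The level of the members differed most between KO tumours. For each sample the deviation of every member from its own mean over the 17 samples was averaged, on the log2 scale. KO parous tumours with metastasis had mean deviations of -0.30 and, for the averaged pair, 0.28, against 0.49, 0.16 and -0.15 in KO parous tumours without metastasis. The KO nulliparous tumour with metastasis had -0.55, the lowest of all samples, against 0.01, 0.54 and 0.32 in KO nulliparous tumours without metastasis. WT parous tumours with metastasis had -0.16, -0.23, -0.05 and -0.07, and WT nulliparous tumours with metastasis had -0.38, 0.09, -0.04 and 0.03. The 2 highest samples were therefore KO tumours without metastasis, and the lowest was a KO tumour with metastasis. Those 2 highest were also the second closest pair of arrays over the bright genes.

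**Figure D1:**
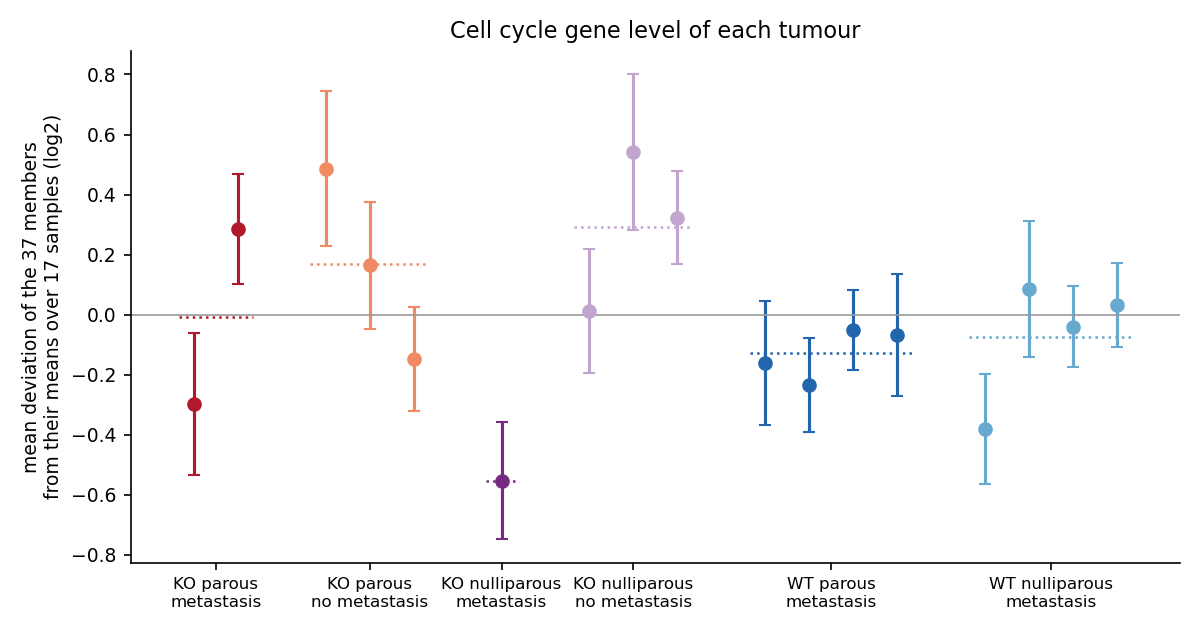
Mean deviation (log2) of the 37 members from their own means over 17 samples, 1 point per sample, by group. Bars are the SD over the 37 members within a sample, not between tumours, and dotted lines are group means. KO samples spread from -0.55 to 0.54, and WT samples lie between -0.38 and 0.09.

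Members went up and down together within a tumour. In the KO nulliparous tumour with metastasis 0 of 37 members stood above their own mean, and 23 members had their lowest value of all samples there. In replicate 2 of the KO nulliparous tumours without metastasis 35 of 37 stood above their own mean, and 19 had their highest value there. Replicate 1 of the KO parous tumours without metastasis also had 35 of 37 above, and the averaged pair of KO parous tumours with metastasis had 34 of 37 above. Replicate 1 of the same metastatic group had 4 of 37 above and held the lowest value of 9 members, so the 2 samples of that group lay on opposite sides of the mean.

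Spread between tumours was wider in KO than in WT mice for most members. Over the 9 KO samples the mean log2 of the members was 9.78 ± 0.37 (SD), against 9.59 ± 0.15 (SD) over the 8 WT samples. The SD over samples was larger in KO than in WT for 34 of 37 members, and it was so for 60.6% of all genes tested. Within groups it was larger in KO for 36 of 37 members, against 68.4% of all genes. The median SD over samples was 0.42 in KO and 0.21 in WT for the members, and 0.16 in KO and 0.14 in WT for all genes. These shares describe the samples and were not tested, and since tumours without metastasis occur only among KO mice, genotype and metastasis status cannot be told apart in them.

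Bub1, a checkpoint kinase of the kinetochore, had the widest spread over all samples, with an SD of 0.47 and a range from 8.56 to 10.39 on the log2 scale. It was followed by Bub1b, its checkpoint partner, with an SD of 0.45, and by Kif23, a kinesin of cytokinesis, also with 0.45. Pcna, the sliding clamp of replication, had the smallest SD at 0.18, then Mcm4, a helicase subunit, at 0.22 and Mki67 at 0.26. RefSeq lists pseudogenes of Pcna, so its probe sets may also read near-identical copies.

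**Figure D2:**
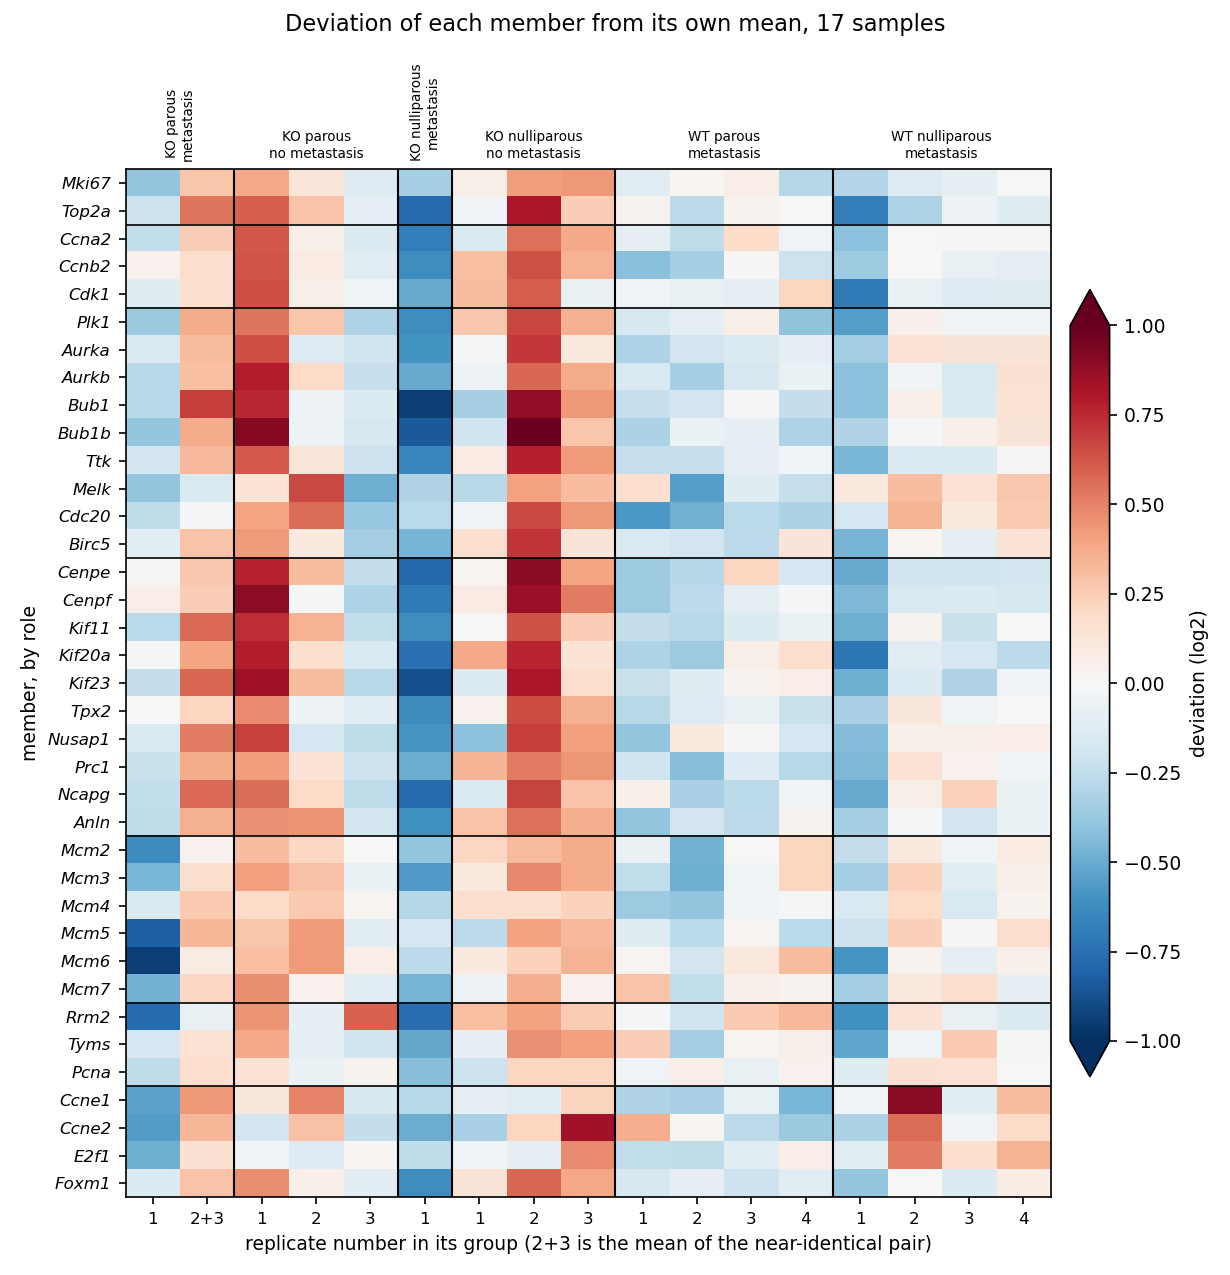
Deviation (log2, colour) of each of the 37 members, grouped by role, from its own mean in each of the 17 samples, with samples ordered by group. The column of the KO nulliparous tumour with metastasis is below the mean for every member, and columns of 2 KO tumours without metastasis are above it for 35 of 37.

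Correlation with the mean of the other members over the 17 samples was highest for mitotic genes. Pearson r was 0.97 for Ttk, the checkpoint kinase also called Mps1, 0.96 for Aurkb, Aurora kinase B, and 0.96 for Kif11, the spindle kinesin. The lowest were 0.44 for E2f1, 0.46 for Ccne1, 0.54 for Ccne2, 0.54 for Melk, a kinase of mitotic cells, and 0.65 for Rrm2, the small subunit of ribonucleotide reductase. Their order depended on a pair of samples and on the measure. Without the 2 samples farthest from the median r was 0.67 for E2f1, 0.63 for Ccne1 and 0.72 for Ccne2, and it was lowest for Melk at 0.48 and Rrm2 at 0.57. Spearman's rho was lowest for Rrm2 at 0.52 and was 0.58 for E2f1. All these points share the same arrays, and the correlations are descriptions over 17 samples.

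Outside the members, the gene most like their mean was Ccnf, which encodes cyclin F, with r of 0.96. It was followed by Kif18b at 0.95, a mitotic kinesin, and by Ect2 at 0.94, an exchange factor of cytokinesis. Next came Cnot9, Nup205, Kif14, Knl1, Aspm, Dynll1, Kif22, Pif1, Cep55, Nsl1, Bard1 and Sgo1, with r of at least 0.91. Without the 2 samples farthest from the median, both KO without metastasis, r stayed at 0.94 for Ccnf and at 0.84 for Nsl1, the lowest of the 15. Altogether 103 of 19901 other genes had r over 0.8, and 48 of the 129 other cell cycle genes listed here were among them. The lowest values were -0.78 for Pnpla2, the triglyceride lipase ATGL, -0.77 for Txnip, a thioredoxin-binding protein, and -0.76 each for Ehhadh, Rnf145 and Tmem140.

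The first question was whether tumours of mice with metastasis had other cell cycle gene levels than tumours of mice without. Most members had lower values with metastasis, and no member passed the test in either of the 2 fits. Averaged over members, mean log2 was 9.50 ± 0.43 (SD, n = 3) in KO tumours with metastasis and 9.92 ± 0.27 (SD, n = 6) in KO tumours without. In parous KO tumours alone it was 9.68 ± 0.41 (SD, n = 2) with metastasis and 9.86 ± 0.32 (SD, n = 3) without. In this bulk tissue, fewer dividing cells and less of these RNAs per dividing cell cannot be told apart.

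Among the proliferation markers, Mki67 encodes Ki-67, the antigen used to count dividing cells in tumour sections. Its log2 values were 10.94 and 11.61 in KO parous tumours with metastasis, against 11.71, 11.45 and 11.20 in KO parous tumours without. The KO nulliparous tumour with metastasis had 10.997, against 11.39, 11.74 and 11.76 in KO nulliparous tumours without. WT tumours, all with metastasis, had 11.22, 11.35, 11.40 and 11.05 in parous mice and 11.04, 11.21, 11.24 and 11.33 in nulliparous mice. The KO groups with and without metastasis overlapped through the averaged pair, while 2 of the 3 metastatic samples lay below every KO sample without metastasis.

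Mki67 averaged 11.18 ± 0.37 (SD, n = 3) in KO tumours with metastasis and 11.54 ± 0.23 (SD, n = 6) in those without. For this log2 difference of -0.36 the exact permutation test gave p = 0.119 (2-sided, 84 splits, smallest possible 0.0238). In parous KO tumours alone the difference was -0.18, with an exact permutation p of 0.6, where the design cannot go below 0.2. Top2a, the topoisomerase that untangles chromosomes before division, had 10.10 and 10.85 in KO parous tumours with metastasis and 10.91, 10.60 and 10.22 in those without. It had 9.54 in the KO nulliparous tumour with metastasis, against 10.28, 11.12 and 10.56 in KO nulliparous tumours without, so the lowest KO sample of each parity was a metastatic one, while the averaged pair lay among the tumours without metastasis. WT values of Top2a were 10.35, 10.05, 10.35 and 10.31 in parous and 9.62, 10.01, 10.26 and 10.19 in nulliparous mice.

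Cdk1 is the kinase that starts mitosis and Ccnb2 one of its cyclins. Cdk1 had log2 values of 11.28 and 11.56 in KO parous tumours with metastasis, against 12.04, 11.46 and 11.36 in those without. In KO nulliparous mice Cdk1 had 10.90 with metastasis and 11.70, 12.003 and 11.32 without. In WT mice it had 11.36, 11.32, 11.31 and 11.61 in parous tumours and 10.69, 11.33, 11.27 and 11.28 in nulliparous tumours. The parous KO groups overlapped, and the single metastatic nulliparous KO tumour lay below its counterparts. The additive fit estimates metastasis status beside genotype and parity over all samples. All WT mice had metastasis, so KO tumours carry that estimate. There Cdk1 differed by -0.43 (SE 0.19), Ccnb2 by -0.44 (SE 0.19) and Ccna2, cyclin A2, by -0.47 (SE 0.20), on the log2 scale. Each had a limma adjusted p of 0.983.

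Mitotic kinases and checkpoint genes are shown by Plk1, Aurka and Birc5. Plk1, whose promoter with its TTTGAA is printed above, had 9.88 and 10.63 in KO parous tumours with metastasis and 10.79, 10.53 and 9.95 in those without. It had 9.63 in the KO nulliparous tumour with metastasis, against 10.52, 10.92 and 10.61 without, and in WT mice 10.09, 10.17, 10.31 and 9.86 in parous and 9.71, 10.30, 10.22 and 10.22 in nulliparous tumours. For Plk1 replicate 1 of the metastatic parous KO group was lower than all 3 tumours without metastasis, and the averaged pair was not. Aurka, Aurora kinase A of the centrosome, had 9.16 and 9.62 with and 9.95, 9.17 and 9.10 without metastasis in KO parous mice. Aurka had 8.70 with and 9.29, 10.01 and 9.41 without metastasis in KO nulliparous mice, and 8.99, 9.12, 9.16 and 9.20 in WT parous and 8.96, 9.44, 9.43 and 9.43 in WT nulliparous mice. Both Aurka samples of the metastatic parous KO group lay inside the range of the group without metastasis.

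Birc5 encodes survivin, a partner of Aurora kinase B. Birc5 had 8.47 and 8.86 with and 9.003, 8.67 and 8.23 without metastasis in KO parous mice, and 8.11 with and 8.74, 9.30 and 8.71 without in KO nulliparous mice. In WT mice Birc5 had 8.43, 8.39, 8.31 and 8.71 in parous and 8.12, 8.60, 8.48 and 8.71 in nulliparous tumours. Its parous KO difference of 0.03 (SE 0.24, log2, limma adjusted p 0.998) was among the 3 highest of the members, with Nusap1, a spindle protein, at 0.09 (SE 0.34, adjusted p 0.990) and Bub1 at 0.02 (SE 0.35, adjusted p 0.999). In nulliparous KO mice Bub1 showed the widest gap of all members, 1.27 below the mean of the 3 tumours without metastasis on the log2 scale.

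Spindle and kinetochore genes are shown by Kif11 and Cenpf. Kif11 had 9.64 and 10.47 with and 10.65, 10.25 and 9.66 without metastasis in KO parous mice, and 9.29 with and 9.91, 10.54 and 10.15 without in KO nulliparous mice. WT tumours had Kif11 at 9.67, 9.63, 9.77 and 9.84 in parous and 9.42, 9.95, 9.68 and 9.90 in nulliparous mice. Again the parous KO groups overlapped and the nulliparous metastatic tumour was below the others of its parity. Cenpf, a large kinetochore protein, had 9.36 and 9.54 with and 10.19, 9.28 and 8.99 without metastasis in KO parous mice, and 8.59 with and 9.38, 10.16 and 9.81 without in KO nulliparous mice. WT tumours had Cenpf at 8.94, 9.03, 9.20 and 9.28 in parous and 8.84, 9.15, 9.16 and 9.14 in nulliparous mice. Both metastatic parous KO samples lay inside the range of the group without metastasis for Cenpf, and the nulliparous one was the lowest of all samples.

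The 3 members of smallest p were genes of replication, both in parous KO tumours and in the additive fit. Rrm2, which makes the deoxynucleotides for DNA synthesis, had 9.82 and 10.52 in KO parous tumours with metastasis, against 11.04, 10.51 and 11.19 in those without. It had 9.83 in the KO nulliparous tumour with metastasis, against 10.90, 10.996 and 10.85 without, and 10.58, 10.39, 10.86 and 10.92 in WT parous and 9.98, 10.74, 10.52 and 10.46 in WT nulliparous tumours. The averaged pair exceeded one parous KO tumour without metastasis by a hundredth of a log2 unit, which was the only overlap among KO samples. The log2 difference of Rrm2 was -0.74 (SE 0.26, limma adjusted p 0.967) in parous KO tumours and -0.89 (SE 0.19, adjusted p 0.429) in the additive fit.

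Mcm6 and Mcm2 are subunits of the ring that unwinds DNA ahead of the fork. Mcm6 had 8.91 and 9.93 in KO parous tumours with metastasis, against 10.15, 10.28 and 9.92 in those without. It had 9.59 in the KO nulliparous tumour with metastasis and 9.95, 10.08 and 10.19 in those without, with 9.88, 9.66, 9.95 and 10.17 in WT parous and 9.26, 9.89, 9.75 and 9.90 in WT nulliparous tumours. The averaged pair and the lowest tumour without metastasis differed by a hundredth, and only replicate 1 stood far below. Mcm2 had 9.14 and 9.81 with and 10.08, 9.98 and 9.77 without metastasis in KO parous mice, 9.38 with and 9.98, 10.08 and 10.14 without in KO nulliparous mice, and 9.70, 9.29, 9.76 and 9.99 in WT parous and 9.53, 9.86, 9.73 and 9.85 in WT nulliparous mice. The log2 differences in parous KO tumours were -0.70 (SE 0.26) for Mcm6 and -0.47 (SE 0.20) for Mcm2, both with limma adjusted p 0.967. In the additive fit they were -0.64 (SE 0.20, adjusted p 0.890) for Mcm6 and -0.55 (SE 0.15, adjusted p 0.812) for Mcm2. All 6 helicase subunits were below 0 in parous KO tumours, with a median of -0.40 on the log2 scale. Replicate 1 was the low sample: the mean deviation of the 6 was -0.58 there and 0.18 in the averaged pair, against 0.33, 0.28 and -0.033 in the tumours without metastasis, so the pair lay inside the range of those 3.

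Pcna had the smallest range of all members over the samples. It had 11.78 and 12.20 with and 12.18, 11.97 and 12.07 without metastasis in KO parous mice, and 11.61 with and 11.83, 12.25 and 12.25 without in KO nulliparous mice. WT tumours had Pcna at 11.998, 12.11, 11.97 and 12.08 in parous and 11.92, 12.19, 12.18 and 12.04 in nulliparous mice. The widest gap for Pcna was again in nulliparous KO mice, where the metastatic tumour was the lowest.

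Cyclin E drives entry into S phase, E2f1 is a transcription factor of that step, and Foxm1 is one of the late genes. Ccne1 had 7.99 and 8.97 with and 8.64, 9.03 and 8.37 without metastasis in KO parous mice, 8.26 with and 8.43, 8.42 and 8.75 without in KO nulliparous mice, and 8.23, 8.21, 8.46 and 8.08 in WT parous and 8.49, 9.43, 8.43 and 8.84 in WT nulliparous mice. The 2 metastatic parous KO samples were the lowest and the second highest of the KO samples. Ccne2, cyclin E2, had 7.33 and 8.22 with and 7.70, 8.18 and 7.65 without metastasis in KO parous mice, 7.39 with and 7.56, 8.10 and 8.73 without in KO nulliparous mice, and 8.24, 7.91, 7.62 and 7.51 in WT parous and 7.57, 8.45, 7.84 and 8.07 in WT nulliparous mice. For Ccne2 the metastatic parous KO samples were the lowest and the highest of their parity and genotype. E2f1 had 8.85 and 9.49 with and 9.30, 9.21 and 9.36 without metastasis in KO parous mice, 9.08 with and 9.31, 9.24 and 9.81 without in KO nulliparous mice, and 9.09, 9.08, 9.23 and 9.40 in WT parous and 9.23, 9.85, 9.50 and 9.68 in WT nulliparous mice. For E2f1 the averaged pair was the highest of the parous KO samples and replicate 1 the lowest. Foxm1 had 8.84 and 9.27 with and 9.44, 9.03 and 8.87 without metastasis in KO parous mice, 8.36 with and 9.10, 9.55 and 9.36 without in KO nulliparous mice, and 8.82, 8.90, 8.77 and 8.86 in WT parous and 8.59, 8.97, 8.84 and 9.05 in WT nulliparous mice. Its lowest KO sample in each parity was a metastatic one, and the averaged pair lay among the tumours without metastasis.

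**Figure D3:**
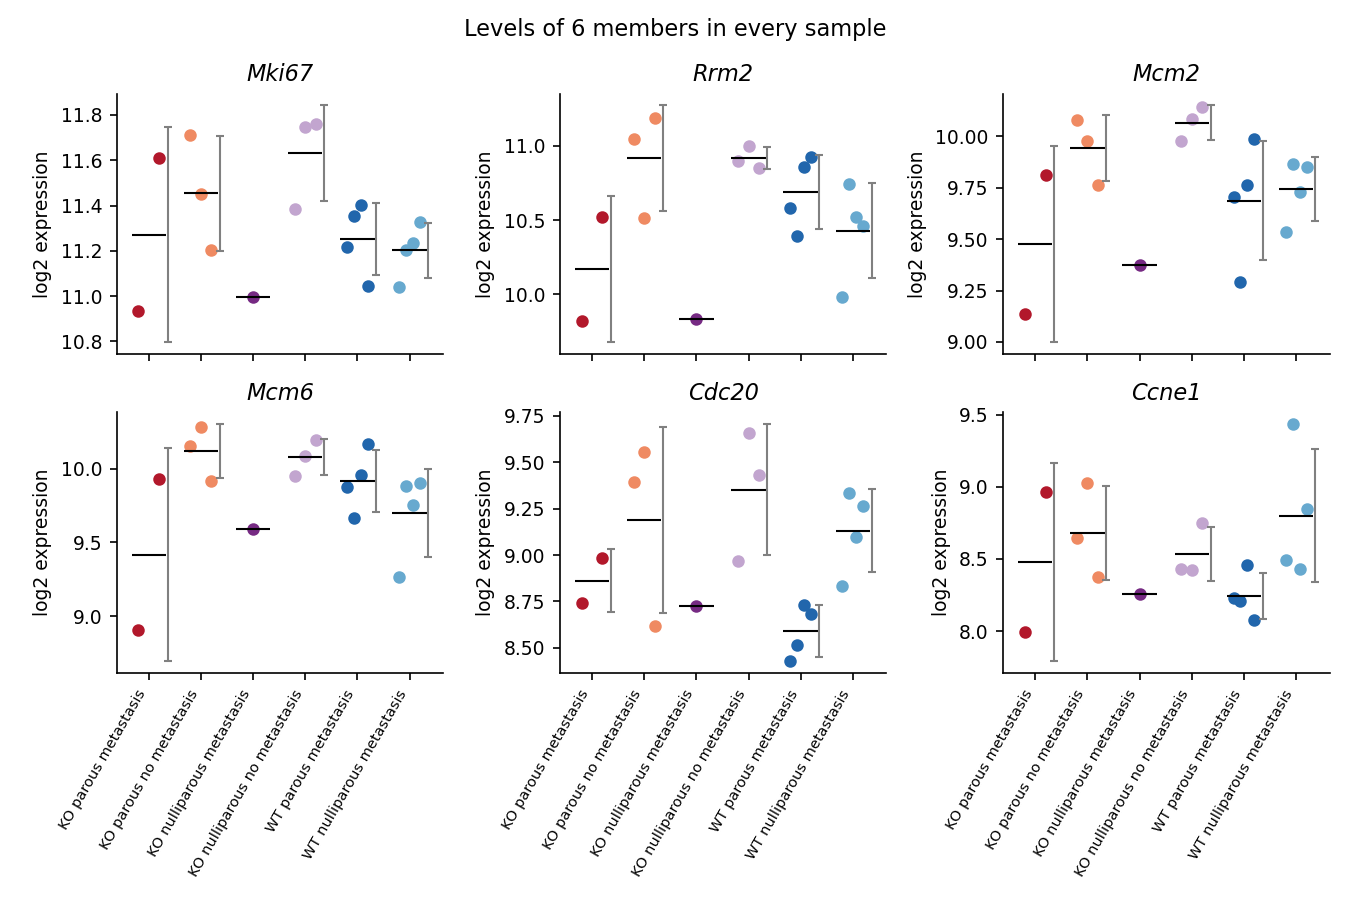
Log2 expression of Mki67, Rrm2, Mcm2, Mcm6, Cdc20 and Ccne1 in each of the 17 samples by group, with the group mean (line) and SD (bar). In the panels of Rrm2 and Mcm6 one of the 2 metastatic parous KO samples stands well below the tumours without metastasis, at 9.82 and 8.91, and the other stands beside them.

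In parous KO tumours 0 of 37 members passed at a limma adjusted p under 0.05, where 0% of all genes passed. At an unadjusted p under 0.05, 3 of 37 members were lower (Rrm2, Mcm6 and Mcm2) and 0 higher, against 2.44% of all genes lower and 1.59% higher. With only these 2 groups in the limma fit, 0 of 37 were lower at that threshold, against 1.15% of all genes. The difference was below 0 for 33 of 37 members, against 61.1% of all genes, and its median was -0.12 on the log2 scale, against -0.03 for all genes. No member had groups that did not overlap, against 10% of all genes lower and 4.41% higher. Over KO tumours of both parities 0 of 37 members were free of overlap, against 1.52% of all genes lower and 0.451% higher. The median of the members changed sign with 1 sample: it was 0.13 without replicate 1 of the metastatic group, -0.45 without the averaged pair, 0.04 without replicate 1 and -0.31 without replicate 3 of the group without metastasis. With the 18 arrays kept apart it was -0.03, with 24 of 37 members below 0.

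In the additive fit all 37 members were below 0, against 60.2% of all genes, with a median log2 difference of -0.42, against -0.02 for all genes. None of the 37 passed, where 0% of all genes passed. At an unadjusted limma p under 0.05, 14 members were lower and 0 higher, against 3.77% of all genes lower and 1.24% higher. They included 4 helicase subunits and the 3 measured genes of the mitotic cyclins and Cdk1. When the only metastatic tumour of a nulliparous KO mouse was left out, the median was -0.18, with 35 of 37 below 0 and 3 lower at an unadjusted p. Without the averaged pair the median was -0.66 and 34 members were lower at an unadjusted p. That count of 14 was 6 with the 18 arrays kept apart, against 4.63% of all genes. With KO tumours only, which carry this estimate, it was 4, against 2.77% of all genes, and the median was -0.43. In the fit of all groups it was 26 without replicate 3 of the KO parous group without metastasis and 5 without its replicate 1. It was 4 without replicate 1 of the KO parous group with metastasis, and 5 and 7 without replicates 2 and 3 of the KO nulliparous group without metastasis.

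**Figure D4:**
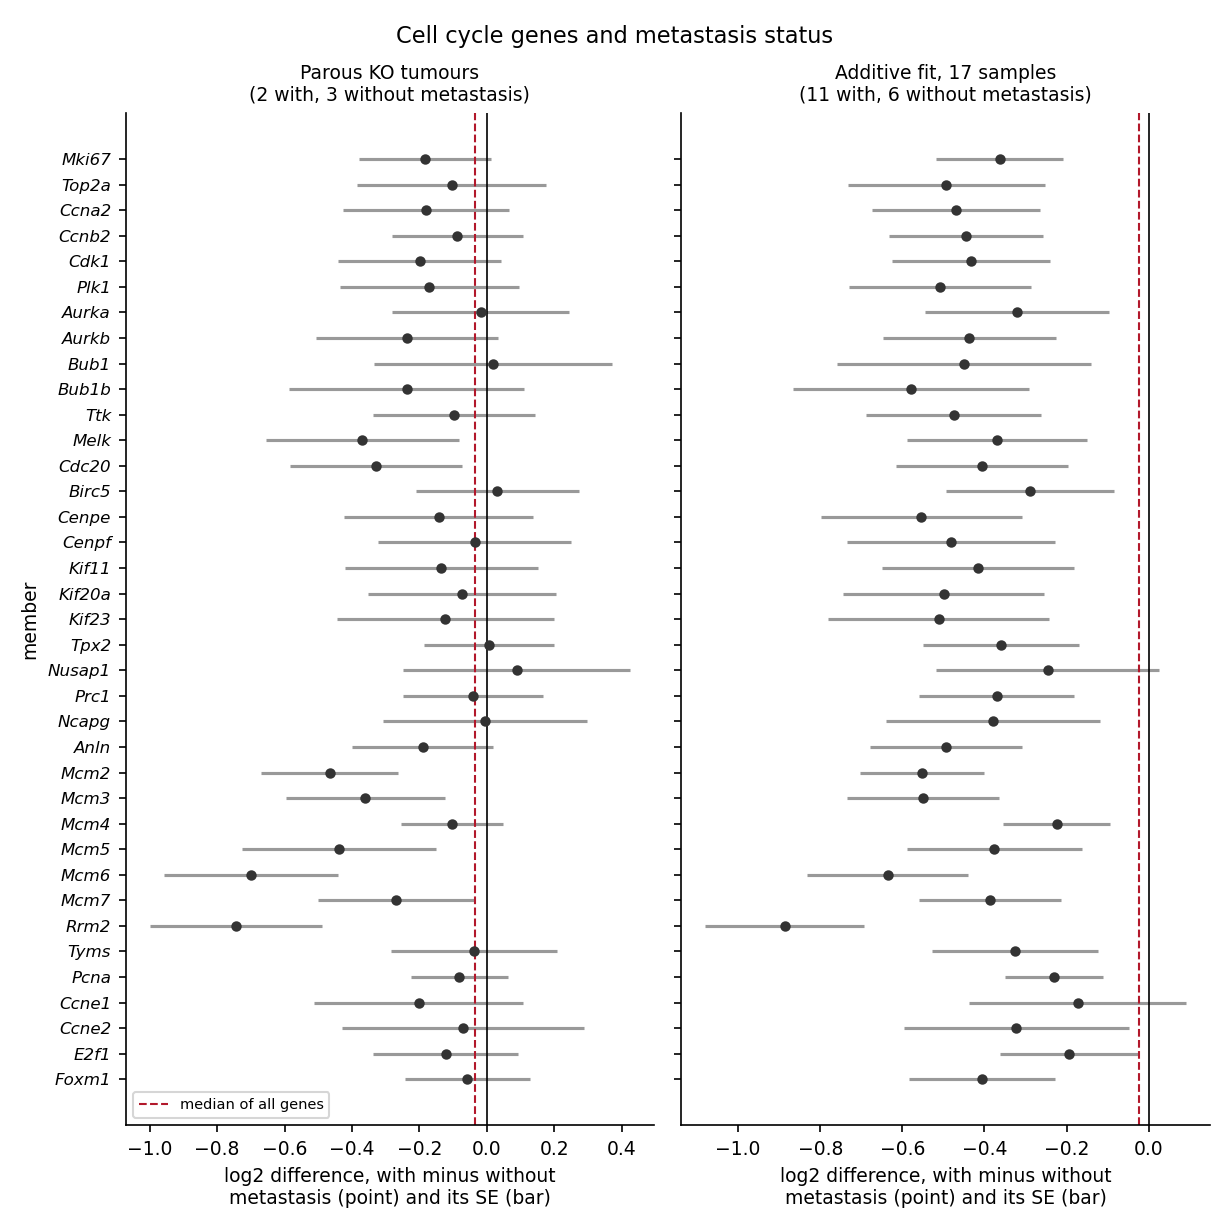
Log2 difference (point) and SE (bar) of each member, with minus without metastasis, in parous KO tumours (left) and in the additive fit (right). The dashed line is the median of all genes, -0.03 on the left and -0.02 on the right. All 37 points on the right lie below 0, and Rrm2 is the lowest on both sides.

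Other cell cycle genes were read from 2 further lists. Of 52 other replication genes 0 passed in either fit, and of 77 other mitosis genes 0 passed. In the additive fit 49 of the 52 replication genes and 75 of the 77 mitosis genes were below 0, with medians of -0.27 and -0.31 on the log2 scale. Of the same 52 and 77 genes, 44 and 43 were below 0 in parous KO tumours, with medians of -0.17 and -0.038, against -0.03 for all genes. Nek2, a centrosome kinase, differed by -0.58 in the additive fit (SE 0.15, limma adjusted p 0.812), and Cit, the citron kinase of cytokinesis, by -0.56 (SE 0.21, adjusted p 0.955). In that fit Dnmt1, the maintenance DNA methyltransferase, differed by -0.30 (SE 0.10, adjusted p 0.890) and Rpa1, a single-strand binding subunit, by -0.30 (SE 0.10, adjusted p 0.890). In parous KO tumours Dnmt1 differed by -0.36 (SE 0.13) and Chaf1b, a chromatin assembly factor, by -0.48 (SE 0.19), both with adjusted p 0.967. On the other side Cenpk, a kinetochore subunit, differed by 0.47 (SE 0.30), Mcm8, a helicase of DNA repair, by 0.24 (SE 0.23) and Ckap5, a microtubule polymerase, by 0.23 (SE 0.15), each with adjusted p 0.967.

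Nulliparous KO mice gave 1 tumour with metastasis and 3 without. All 37 members were lower in the metastatic tumour, with a median log2 difference of -0.88, and 36 of 37 lay below every tumour without metastasis. Over all genes, 10683 of 19938 were lower and 6056 lay below every tumour without metastasis. The difference ran from -1.27 for Bub1 to -0.28 for Ccne1, and it was -0.63 for Mki67. The spindle group had a median of -1.02 and the helicase a median of -0.53. The contrast was tested with limma after these values were seen. The spread was pooled over the 6 groups, so the lone tumour is assumed to vary like the others. Within groups the members' median SD was 0.38 in KO and 0.21 in WT, so the pooled spread can be too small for KO tumours. Members moved together, so the number of low members in this 1 tumour is not a number of separate events. The p-values of this contrast are therefore given without a conclusion. None of the 37 members passed (lowest adjusted p 0.18, for Ccnb2 at -1.05, SE 0.24), where 0.14% of all genes passed. At an unadjusted p under 0.05, 28 members were lower, against 5.49% of all genes.

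Markers of other cells and states were read beside the members, and with limma 0 of them passed in parous KO tumours or in the additive fit. RMA log2 values have no zero, so none can be called absent. In parous KO tumours 14 of 15 hypoxia and glycolysis genes were above 0, with a median log2 difference of 0.62, and 14 of 14 skeletal muscle markers were below 0, with a median of -0.99. There 14 of 14 fibroblast and matrix markers (median -0.36), 11 of 12 endothelial markers (median -0.30) and 11 of 12 leukocyte markers (median -0.24) were also below 0. In the additive fit 18 of 18 interferon response genes were above 0 (median 0.70) and 14 of 14 muscle markers below 0 (median -0.75). In that fit all 14 fibroblast and matrix markers (median -0.27) and all 12 endothelial markers (median -0.28) were below 0, while 10 of 12 leukocyte markers were above 0 (median 0.12). The mean log2 of the interferon genes ranged from 8.77 to 10.55 in KO tumours with metastasis and from 8.26 to 9.94 in those without, and that of the muscle markers from 7.17 to 7.42 with metastasis and from 7.43 to 9.23 without. In the nulliparous KO comparison the median difference was 1.34 for the interferon genes and 0.69 for the leukocyte markers. With the means of leukocyte and adipocyte markers as covariates, the members' median in the additive fit was -0.34 and 37 of 37 stayed below 0, with 5 lower at an unadjusted p. The part of the interferon, muscle, hypoxia, fibroblast and endothelial genes was not tested.

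Genotype was compared in parous mice with metastasis, KO against WT. The 10 spindle, kinetochore, condensin and cytokinesis genes were all higher in KO tumours, between 0.23 and 0.34 on the log2 scale, whereas Rrm2 and Mcm6 were lower, and none passed. Averaged over members, mean log2 was 9.68 ± 0.41 (SD, n = 2) in KO tumours, against 9.56 ± 0.09 (SD, n = 4) in WT tumours. Of 37 members 26 were above 0, against 41.6% of all genes, and the median was 0.21, against -0.03 for all genes. With limma 0 of 37 passed, where 0% of all genes passed. At an unadjusted p under 0.05 it was 0 of 37, against 5.73% of all genes.

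Ccnb2, whose promoter is printed above, differed by 0.35 (SE 0.18, log2, limma adjusted p 0.911), Mcm4 by 0.26 (SE 0.14, adjusted p 0.913) and Prc1, a microtubule bundler of the midzone, by 0.33 (SE 0.20, adjusted p 0.914). Ccnb2 had 11.65 and 11.78 in KO and 11.19, 11.28, 11.62 and 11.39 in WT parous tumours with metastasis, without overlap. Such a gap was found for 4 of 37 members, all higher in KO (Ccnb2, Cdc20, Cenpf and Tpx2), against 6.27% of all genes higher and 11.7% lower. Rrm2 differed by -0.52 (SE 0.24, adjusted p 0.867), Mcm6 by -0.50 (SE 0.25, adjusted p 0.879) and Mcm2 by -0.21 (SE 0.19, adjusted p 0.955). Beside them 14 of 14 T and NK cell markers (median -0.18) and 12 of 12 endothelial markers (median -0.24) were below 0. Milk and secretory genes were above 0 for 10 of 11 (median 0.23). The part of these markers was not tested. The 2 KO samples decided the sign: the members' median was -0.12 without the averaged pair and 0.43 without replicate 1.

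In the additive fit of genotype the median over members was -0.05, against -0.03 for all genes, and 11 of 37 were above 0, against 38% of all genes. None of the 37 passed with limma, where 0% of all genes passed. At an unadjusted p under 0.05, 1 member was lower in KO, Rrm2 at -0.53 (SE 0.19, log2, limma adjusted p 0.999), against 2.68% of all genes. Its 3 highest differences were 0.07 for Prc1, 0.06 for Mcm4 and 0.05 for Ccnb2. Because all WT mice had metastasis, this fit takes the metastasis difference from KO mice alone.

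Parity was compared in WT mice with metastasis, parous against nulliparous, where 0.542% of all genes rose and 1.86% fell. No member did, and the median over members was -0.05 on the log2 scale, with 24 of 37 below 0, against 51.7% of all genes. It was -0.14 without replicate 1 of the nulliparous group, with 30 of 37 below 0, and -0.20 with leukocyte and adipocyte means as covariates, with 34 of 37 below 0. Cdc20, the activator of the anaphase-promoting complex, had 8.43, 8.52, 8.73 and 8.68 in parous and 8.83, 9.33, 9.10 and 9.26 in nulliparous WT tumours. It was the only member whose groups did not overlap, where 7.63% of all genes were lower without overlap. Its log2 difference was -0.54 (SE 0.20, limma adjusted p 0.181), and with only these 2 groups in the fit it passed (SE 0.12, adjusted p 0.0471). In that fit 1 of 37 members passed, where 878 of all 19938 genes did. In KO mice Cdc20 had 8.74 and 8.98 in parous tumours with and 9.40, 9.56 and 8.62 in those without metastasis, and 8.73 with and 8.97, 9.66 and 9.43 without in nulliparous mice. Parous and nulliparous KO tumours overlapped for Cdc20.

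Ccne1 and E2f1, of the entry into S phase, were also lower in parous WT tumours at an unadjusted p under 0.05, so 3 of 37 members were, against 9.81% of all genes. Ccne1 differed by -0.56 (SE 0.24, log2, adjusted p 0.270) and E2f1 by -0.36 (SE 0.17, adjusted p 0.306). On the other side Cdk1 differed by 0.26 (SE 0.19, adjusted p 0.562), Rrm2 by 0.26 (SE 0.20, adjusted p 0.582) and Top2a by 0.24 (SE 0.22, adjusted p 0.656). Among other replication genes Rpa2, a subunit of the single-strand binding protein, fell by 0.55 (SE 0.13, limma adjusted p 0.0434). Among other mitosis genes Smc4, a condensin subunit, rose by 0.66 (SE 0.12, limma adjusted p 0.0192). They were the only genes of those lists to pass, 1 of 52 and 1 of 77, where 2.4% of all genes passed. Rpa2 lies on chromosome 4, where 148 of 1154 genes passed, against 249 of 17052 genes outside chromosomes 2 and 4.

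The parity difference in WT mice was also read by chromosome. Chromosomes 2 and 4 were picked because earlier results of these data placed many changed genes of this comparison there. The split is therefore not independent of the comparison. The 7 members on chromosome 2 (Aurka, Bub1, Bub1b, Tpx2, Nusap1, Pcna and E2f1) were all below 0, with a median of -0.11. Over all genes of that chromosome 1142 of 1732 were below 0, with a median of -0.05. The 3 members on chromosome 4 (Melk, Cdc20 and Ccne2) were also below 0, with a median of -0.39. Over all genes there 891 of 1154 were below 0, with a median of -0.23. Of the 27 members elsewhere, 14 were below 0 and 13 above, with a median of -0.01 against 0.00 for all genes elsewhere. In the same comparison 18 of 18 interferon genes were below 0 (median -1.75), 11 of 12 leukocyte markers were below 0 (median -0.55) and 13 of 15 hypoxia genes above 0 (median 0.60). With leukocyte and adipocyte means as covariates Cdk1 was at -0.04 and Rrm2 at -0.18, and 0 of all genes passed.

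In KO mice without metastasis, parous against nulliparous, most members had lower values in parous tumours and none passed. With limma 0 of 37 passed, where 0% of all genes passed, and unadjusted p was under 0.05 for 0 of 37, against 3.29% of all genes. The median was -0.14 on the log2 scale and 32 of 37 were below 0, against 47.4% of all genes. These were all 10 members on chromosomes 2 and 4 and 22 of the 27 elsewhere. The 10 had a median of -0.15, against 0.002 for all genes of those chromosomes. Prc1 differed by -0.31 (SE 0.19), Tpx2, a spindle assembly factor, by -0.25 (SE 0.17) and Foxm1 by -0.23 (SE 0.17), each with adjusted p 1.00 after rounding. Ccne1 was highest at 0.15 (SE 0.28), followed by Mcm6 and Mcm5, both at 0.04. Without single samples the members' median lay between -0.30 and 0.037. Beside it 12 of 12 leukocyte markers were above 0, with a median of 0.36, and their part was not tested.

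Over all samples, with parity beside genotype and metastasis, the median over members was 0.03 and 23 of 37 were above 0, against 49.5% of all genes. It was -0.09 without the KO nulliparous tumour with metastasis and -0.07 with the leukocyte and adipocyte covariates, each with 8 of 37 above 0. Over the other samples left out in turn it ran from -0.037 to 0.09. None of the 37 passed with limma, where 0% of all genes passed, and unadjusted p was under 0.05 for 0 of them, against 12.7% of all genes. Cdc20 differed by -0.30 (SE 0.14, log2, adjusted p 0.414), E2f1 by -0.22 (SE 0.12, adjusted p 0.461) and Melk by -0.20 (SE 0.15, adjusted p 0.643). Top2a differed by 0.24 (SE 0.17, adjusted p 0.599), Cdk1 by 0.19 (SE 0.13, adjusted p 0.611) and Kif23 by 0.26 (SE 0.19, adjusted p 0.616).

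The difference between the 2 parity effects, KO without minus WT with metastasis, was tested directly. With limma 0 of 37 members passed, where 0% of all genes passed, and unadjusted p was under 0.05 for 0 members, against 9.64% of all genes. The median over members was -0.12, and it was 0.18 with the leukocyte and adipocyte covariates. Ccne1 had the largest value at 0.70 (SE 0.37, log2, adjusted p 0.562), then Cdc20 at 0.38 (SE 0.30, adjusted p 0.721) and Melk at 0.34 (SE 0.34, adjusted p 0.784). On the lower side Kif20a, a kinesin of cytokinesis, had -0.37 (SE 0.33, adjusted p 0.760), Cdk1 -0.32 (SE 0.29, adjusted p 0.760) and Tyms, thymidylate synthase, -0.31 (SE 0.29, adjusted p 0.768). In the same contrast 18 of 18 interferon genes were above 0, with a median of 2.02, and their part was not tested. This contrast also spans metastasis status, and the parts of genotype and metastasis in it cannot be told apart.

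**Figure D5:**
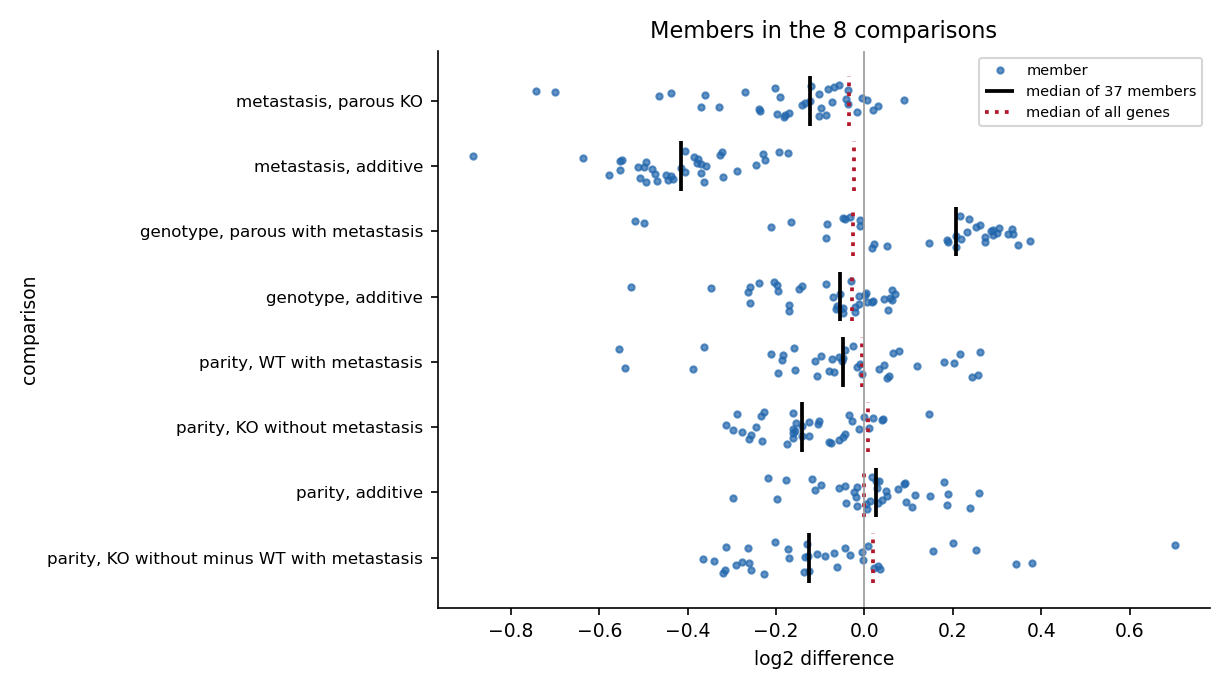
Log2 difference of each of the 37 members (points) in the 8 comparisons, with the members' median (black line) and the median of all genes (dotted line). The members' median lies farthest from that of all genes in the additive metastasis fit, -0.42 against -0.02, and next in the genotype comparison of parous mice with metastasis, 0.21 against -0.03.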

How the data were processed

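Affymetrix arrays of 18 tumours were read as the deposited log2 expression values of 35556 probe sets. The submitters' processing notes name RMA and oligo without versions. The deposited log2 values ran from 3.99 to 14.62. RMA compresses dim genes, and quantile normalization removes a shift shared by all genes. Precision is limited by how many arrays there are.

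By the platform annotation, 21789 probe sets had 1 gene, 1621 several and 12146 none, and the last 2 kinds were left out. The probe set of highest mean over the arrays was kept per gene, which left 19938 genes, 19855 of them matched to RefSeq GRCm38.p6 by Entrez identifier. That table gave chromosomes and promoter windows. Groups came from the labels.

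The 8 comparisons were tested 2-sided in R 4.3.3 with lmFit and eBayes of limma 3.58.1, with Benjamini-Hochberg adjustment over all 19938 genes and a threshold of 0.05. Contrasts between groups came from the fitted means of all 6 groups. Additive fits used genotype, parity and metastasis together. Averaging the near-identical pair was part of the main setting, with the 18 arrays apart as an alternative. Lists are described by counts and medians, without a test. The members and lists, the averaging, and the reading of chromosomes 2 and 4 were chosen with earlier results of these data known. Genes named are those set for values in every sample, the 3 members of smallest p in each direction where none passed, members of extreme SD, and genes most and least correlated with the members' mean. On simulated data with independent noise, changes of 1 on the log2 scale were placed in genes drawn from all genes. The parous KO metastasis contrast recovered 76% of them, and the additive metastasis fit 87%. Each simulated gene had the same spread in all groups. In the real parous KO contrast the median SE was 0.26 for members and 0.14 for all genes, so these shares cannot be read as recovery of members. Alternatives were normalization, prior, dim-gene filter, probe set rule, covariates, samples in the fit, replicate block and leaving out each sample.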

Additional observations from a re-analysis of the deposited data

Results flagged for a closer look

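Samples far from the rest of a group of 4 were looked for in the WT groups, by the gap to the nearest sample over the range of the group (Dixon's test at 95%). Of 50 such tests over 25 genes and gene-group means, 8 stood out, where chance gives about 1 in 20 for independent tests. These were not independent, since members moved together and the means hold the same genes, so the number of low values in 1 sample is not a number of separate events. Of these, 6 were low values in replicate 1 of the WT nulliparous tumours with metastasis. There Cdk1 was 10.69 on the log2 scale, against 11.27 to 11.33 in the other 3, Plk1 was 9.71 against 10.22 to 10.30, Aurka was 8.96 against 9.43 to 9.44 and Cenpf was 8.84 against 9.14 to 9.16. The mean of the mitotic cyclins and Cdk1 was 10.93 there, against 11.35 to 11.39, and the mean of the spindle, kinetochore, condensin and cytokinesis genes was 8.98, against 9.36 to 9.43. The same sample had a mean log2 of 10.62 for the 14 skeletal muscle markers, against 7.01 to 7.89 in the other 3, and of 9.22 for the adipocyte markers, against 8.11 to 8.47. Their part in the low values was not tested. The other 2 were Top2a in replicate 2 of the WT parous tumours, at 10.05 against 10.31 to 10.35, and Cdk1 in replicate 4 of that group, at 11.61 against 11.31 to 11.36.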

How the results depend on the processing

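The number of members that passed was 0 in every comparison and setting, except that Cdc20 made it 1 for parity in WT mice with only the 2 groups in the fit. Replicate numbers did not pair the samples: deviations of 31 same-numbered pairs had a median r of 0.01, against 0.00 for 84 other pairs. With the replicate number as a block, the 18 arrays kept apart and the KO nulliparous tumour with metastasis left out, the members' median was -0.10 in the additive metastasis fit and 0.34 in the additive genotype fit, and 1 gene passed for genotype, both in parous mice and in the additive fit. With the 18 arrays apart, 2 genes passed for metastasis and 55 for parity in the additive fits. For parity in WT mice, against 478 genes, 878 passed with only those groups and 0 with the leukocyte and adipocyte covariates. With the covariates the members' median of the parity difference was 0.18. They also turned Bub1 to -0.066 for metastasis in parous KO mice, Cdk1 to -0.035 and Rrm2 to -0.18 for parity in WT mice, and Kif20a to 0.14, Cdk1 to 0.11 and Tyms to 0.058 for the parity difference; the cause was not tested.

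Leaving out 1 sample at a time gave 0 to 5 passing genes for metastasis in parous KO mice, 0 to 1 in the additive fit, 0 to 17 for genotype in parous mice, 57 to 770 for parity in WT mice, 0 to 2 in KO mice, 0 to 369 in the additive parity fit and 0 to 8 for the parity difference. The members' median ran from -0.45 to 0.13 for metastasis in parous KO mice, from -0.66 to -0.18 in the additive fit, from -0.12 to 0.43 for genotype in parous mice, from -0.30 to 0.20 in the additive genotype fit, and from -0.31 to 0.033 for the parity difference. Single genes changed sign: Nusap1 (-0.24 to 0.42), Birc5 (-0.17 to 0.23) and Bub1 (-0.47 to 0.50) for metastasis in parous KO mice, Mcm6 (-1.01 to 0.011) and Mcm2 (-0.55 to 0.13) for genotype in parous mice, Ccnb2 (-0.11 to 0.37), Mcm4 (-0.10 to 0.23) and Prc1 (-0.19 to 0.36) for additive genotype, and Ccne1 (-0.026 to 0.30), Mcm6 (-0.040 to 0.14) and Mcm5 (-0.17 to 0.20) for parity in KO mice. Mki67 in KO mice stayed lower with metastasis, from -0.58 to -0.24.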

Other observations

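Pcna and Top2a each had a second probe set that carried its symbol alone. For Pcna the 2 probe sets had the same mean log2 of 12.0 and r of 0.76 and 0.75 with the members' mean over the 17 samples. For Top2a the second probe set was dim, with a mean of 5.10, and its r with the members' mean was -0.01, against 0.92 for the one used.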
